A study of Homo sapiens with 24 samples.

Results

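The 40 genes described here are interferon-stimulated genes and the cytosolic RNA sensors that can lead to their induction. They were chosen by gene symbol, as a list drawn up with earlier results of these data known, and all 40 were found among the 60660 features of the expression tables. By role they are 3 RNA sensors (DDX58, IFIH1 and DHX58), 4 transcription factors (STAT2, IRF9, IRF1 and IRF7), 4 IFIT proteins, 6 OAS and MX proteins, 4 membrane restriction factors, 2 genes of the ISG15 system, 2 immunoproteasome subunits and 15 other effectors. A filter on low counts kept all 40 in the PC3 libraries and 39 in the LNCaP libraries, where MX2 did not pass.

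Poly(A) RNA was sequenced from 24 libraries, 3 in each of 8 groups, to ask how prostate cancer cells respond to Acetalax (oxyphenisatin acetate) and how cells selected to tolerate it differ. The cells were PC3, an androgen-independent line derived from bone metastasis and grown in F-12 medium, and LNCaP, an androgen-responsive line from a lymph node metastasis grown in RPMI-1640. Each line was used as parental cells and as a CE (chronic exposure) derivative, obtained by passaging under slowly increasing Acetalax and then kept without drug for 2 weeks. Every one of these 4 cell populations was sampled without drug (control) and after 10 µM Acetalax for 4 h. Both media contained 10% fetal bovine serum. Triplicates are described as biological, with no mention of independent cultures. The p-values therefore reflect variation among these libraries, part of which may be technical. There is 1 CE derivative for each line. Libraries held 40160832 to 57728014 estimated read counts, assigned to genes by the authors.

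The libraries labelled CE differed from their parental lines in far more than the interferon genes, and the markers bear on every comparison across the label. Over the 19224 features above 1 TPM in some group, PC3 CE and LNCaP CE controls correlated with each other at r = 0.947 (log2 group means), against 0.761 for PC3 CE with PC3 parental and 0.792 for LNCaP CE with LNCaP parental. The summed level of 7 epithelial markers was 7229 and 1406 TPM (a transcript level per length, scaled to one total per library) in PC3 and LNCaP parental controls, against 26.4 and 8.15 in the CE controls. Of 7 prostate luminal markers, whose sum was 6786 TPM in LNCaP parental controls and 5.88 in LNCaP CE, KLK3 (prostate-specific antigen) went from 4399 to 0.78. A list of 6 fibroblast and mesenchymal markers summed to 34.3 and 17.7 TPM in PC3 and LNCaP parental controls but 2998 and 1011 in the CE controls. Most of both CE sums was COL1A2 and COL3A1. COL1A1 of the same list was lower in PC3 CE, from 38.18, 29.93 and 32.11 TPM to 12.24, 11.01 and 10.38. In LNCaP its libraries overlapped, at 20.15, 7.12 and 21.21 TPM in parental controls and 12.99, 11.71 and 11.92 in CE. PDGFRA was at 0.32, 0.37 and 0.29 TPM in PC3 CE controls. The 7 melanocyte markers summed to 7.18 and 8.33 TPM in parental and 381 and 21.6 in CE controls, nearly all of the latter TYRP1, and 5 endothelial markers to 5.39 and 5.51 against 0.107 and 0.05. STAT3, which PC3 cells are known to lack, was at 0.02 TPM in PC3 parental controls and 32.4 in PC3 CE. Whether the CE libraries come from the labelled lines was not tested. Exposure to the drug and the identity of the cells cannot be told apart in any comparison of CE with parental libraries, nor can line and growth medium in any comparison of LNCaP with PC3. Fewer cells of a type and less RNA per cell cannot be told apart in bulk samples. In all, 3 libraries stood apart from their replicates: PC3 CE Acetalax 1, LNCaP parental control 2 and LNCaP parental Acetalax 3.

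In the type I interferon pathway, RIG-I (encoded by DDX58) and MDA5 (IFIH1) recognise viral RNA in the cytosol and signal through MAVS to the factors that switch on interferon genes, with LGP2 (DHX58) as a modulator. Secreted interferon then acts through JAK kinases to bring STAT2 and IRF9 into a complex that binds the interferon-stimulated response element (ISRE). Interferon gamma instead works through the gamma-activated site (GAS) and induces IRF1. The sensors, STAT2, IRF9 and IRF7 are themselves interferon-stimulated, so the pathway amplifies its own components.

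Promoters of IFIT1, IFIT3, IFIT5, BST2 and GBP1 are shown because these members are followed through the comparisons below. Each covers the 250 bases before the annotated start in RefSeq (GRCh38.p14), written along the strand of the gene, with matches on either strand to the ISRE core (GAAA, any pair of bases NN, then GAAA) or the GAS core TTCNNNGAA in capitals. IFIT1 is at chr10:89392373-89392622 on the plus strand, IFIT3 at chr10:89327747-89327996 on the plus strand, IFIT5 at chr10:89414318-89414567 on the plus strand, BST2 at chr19:17405631-17405880 on the minus strand and GBP1 at chr1:89065209-89065458 on the minus strand.
IFIT1: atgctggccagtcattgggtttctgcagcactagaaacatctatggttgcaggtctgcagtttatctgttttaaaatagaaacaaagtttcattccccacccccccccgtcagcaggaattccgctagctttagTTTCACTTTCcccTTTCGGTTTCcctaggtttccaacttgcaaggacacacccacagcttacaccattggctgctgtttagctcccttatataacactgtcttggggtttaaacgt
IFIT3: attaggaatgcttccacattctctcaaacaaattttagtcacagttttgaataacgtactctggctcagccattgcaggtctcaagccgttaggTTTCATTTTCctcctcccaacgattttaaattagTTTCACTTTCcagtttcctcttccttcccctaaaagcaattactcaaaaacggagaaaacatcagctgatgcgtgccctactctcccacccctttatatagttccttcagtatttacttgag
IFIT5: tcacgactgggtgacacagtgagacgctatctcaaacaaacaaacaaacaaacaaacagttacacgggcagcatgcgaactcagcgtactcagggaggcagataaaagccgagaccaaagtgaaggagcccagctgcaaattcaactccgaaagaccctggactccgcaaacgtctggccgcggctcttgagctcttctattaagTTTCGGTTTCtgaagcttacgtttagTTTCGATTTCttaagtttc
BST2: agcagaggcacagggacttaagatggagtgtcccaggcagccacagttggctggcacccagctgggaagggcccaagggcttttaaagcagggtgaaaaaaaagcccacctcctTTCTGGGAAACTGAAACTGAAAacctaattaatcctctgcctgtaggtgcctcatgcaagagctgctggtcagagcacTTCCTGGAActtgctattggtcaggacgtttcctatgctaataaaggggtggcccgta
GBP1: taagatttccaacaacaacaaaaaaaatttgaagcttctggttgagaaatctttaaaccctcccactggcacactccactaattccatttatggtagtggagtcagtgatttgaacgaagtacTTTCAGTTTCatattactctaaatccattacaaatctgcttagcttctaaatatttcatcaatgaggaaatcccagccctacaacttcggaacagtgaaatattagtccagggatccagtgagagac

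IFIT1, IFIT3 and IFIT5 each held 2 ISRE cores, BST2 held 2 overlapping ISRE cores and 2 GAS cores, and GBP1 held 1 ISRE core. Between the furthest upstream ISRE core and the start lay 35 bases in IFIT5, compared with 106 in IFIT1 and 146 in IFIT3. A promoter was matched for 31 of the 40 members, IFIT2 not among them, and 16 of those 31 (51.6%) held the ISRE core in this window, against 839 of 27305 promoters (3.07%) in the whole table. The GAS core was in 7 of 31 (22.6%), against 6.78% of all promoters. The window of DDX58 (chr9:32526197-32526446, minus strand) held neither motif as written here. It does hold GAAACGAAA, with 1 base between 2 copies of GAAA, which the ISRE core as searched does not match. A match is a description of letters and not a test of binding.

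Many of the members are neighbours. On GRCh38 with GENCODE 29 positions, 22 of the 40 lay in 9 clusters whose genes were within 100 kb of each other. The IFIT genes lie together on chromosome 10 from 89283694 to 89421001, in the order IFIT2, IFIT3, IFIT1 and IFIT5. CMPK2 with RSAD2, PARP9 with DTX3L and PSMB8 with PSMB9 are pairs read in opposite directions from starts 829, 339 and 567 bases apart. LIPA overlaps IFIT1, IFIT2 and IFIT3 on the other strand, C5orf56 overlaps IRF1, and other opposite-strand genes overlap OAS1, OAS2, OAS3, MX1, IFITM2, IFITM3, ISG15, IFI6, XAF1 and TRIM22, as do the partners of the 3 pairs each other. TAP1, at 201.7, 190.14 and 192.11 TPM in LNCaP CE controls, also overlaps PSMB9 on the other strand. Counts of all these members are uncertain because the strand setting of the counting is not given in the sources used here. IRF9 and IFITM1 are overlapped on the same strand by the protein-coding genes AL136295.5 and IFITM2, which strand information cannot separate. IFITM1, IFITM2 and IFITM3 are near-identical copies between which reads may be misassigned.

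Without drug, most members had their highest level in PC3 parental or LNCaP CE cells. Of the 40 members, 19 had their highest control level in LNCaP CE, 15 in PC3 parental, 4 in PC3 CE and 2 in LNCaP parental cells. At least 1 TPM was reached by 37 members in PC3 parental controls, 33 in LNCaP CE, 28 in LNCaP parental and 25 in PC3 CE. The summed level of the 40 was 1252 TPM in PC3 parental controls, 513 in LNCaP parental, 2375 in PC3 CE and 3494 in LNCaP CE. IFITM3, which keeps viruses from fusing with endosomal membranes, made up the largest piece of these sums, with 385.87, 296.11 and 410.26 TPM in PC3 parental controls and 1900.93, 1786.08 and 1846.39 in LNCaP CE.

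**Figure D1:**
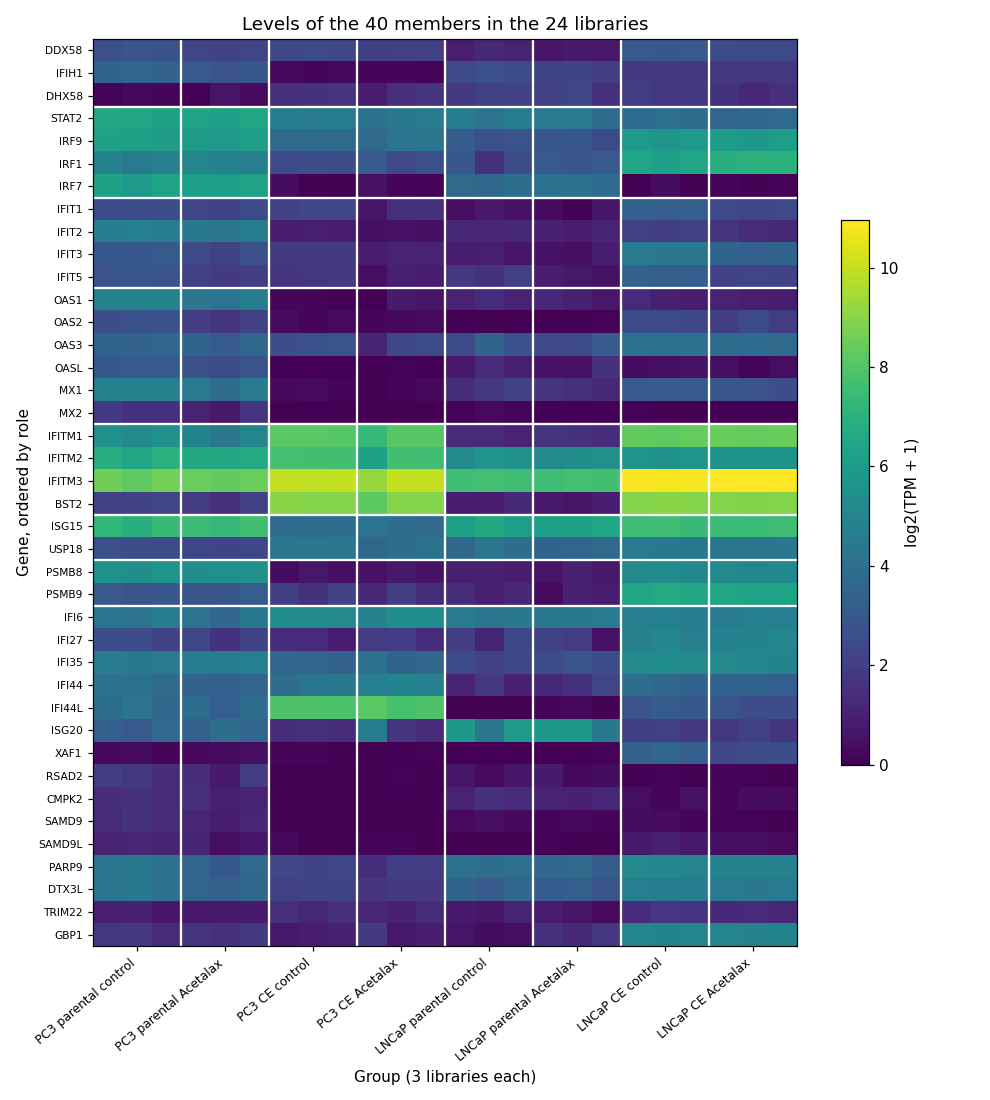
Level of each of the 40 members (lines, ordered by role) in each of the 24 libraries (columns, by group), as log2(TPM + 1) in colour. PC3 parental libraries are high for OAS and MX genes, both CE populations for BST2, IFITM1 and IFITM3, and LNCaP CE libraries for PSMB9, IRF1 and GBP1.

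Parental LNCaP cells carried far less RNA of most of these genes than parental PC3 cells. Of the 40 members, 32 were lower and 3 higher in LNCaP controls, at a Benjamini-Hochberg adjusted p under 0.05 in edgeR's quasi-likelihood test across all genes. The libraries differed widely in general: 70.3% of all 21955 genes tested were called, 34.7% lower and 35.5% higher. The median log2 fold change was -2.40 for the members and 0.00 for all genes. TPM ranges of the 2 groups did not overlap for 35 members (32 lower, 3 higher in LNCaP), a pattern seen in 35.2% of all genes for lower and 35.0% for higher values.

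Antiviral effectors differed most. OAS2, an oligoadenylate synthetase, was at 5.18, 5.84 and 5.7 TPM in PC3 and at 0, 0.04 and 0 in LNCaP, so that LNCaP libraries were near 0. Its log2 fold change was -8.87 ± 0.48 (SE, adjusted p = 1.16e-12). IFI44L, an interferon-induced protein related to IFI44, was at 13.62, 16.89 and 11.47 TPM in PC3 and at 0.05, 0.06 and 0.01 in LNCaP (log2 fold change -8.93 ± 0.27). SAMD9L, an antiviral and growth-restricting factor, had 612 counts in the PC3 controls together and 0 in LNCaP, which puts it at least 228-fold lower. PSMB8, a catalytic subunit of the immunoproteasome, was at 48.88, 42.16 and 50.37 TPM in PC3 against 0.96, 0.95 and 0.86 (-5.74). Other members lower by a wide margin were MX2, a block to nuclear entry of viruses (-5.14), IFITM1 (-4.92) and OAS1 (-4.61).

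The sensors moved in different directions between the lines. DDX58 was at 5.41, 6.45 and 5.6 TPM in PC3 and at 0.91, 1.3 and 1.12 in LNCaP (log2 fold change -2.37 ± 0.14, adjusted p = 2.8e-12), and the groups did not overlap. IFIH1 was also lower, by 1.28 ± 0.16 on the log2 scale. DHX58 was the reverse, at 0.09, 0.19 and 0.13 TPM in PC3 and 2.48, 3.43 and 3.5 in LNCaP (5.04 ± 0.50, adjusted p = 1.62e-08). The other members higher in LNCaP were USP18, the protease that removes ISG15 from proteins and restrains interferon receptor signalling (1.51 ± 0.16), and ISG20, an exonuclease (2.23 ± 0.64).

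All 4 transcription factors were lower in LNCaP: STAT2 by 1.86, IRF9 by 3.41, IRF1 by 2.66 and IRF7 by 2.57 on the log2 scale. IRF9, the DNA-binding part of the ISRE complex, stood at 76.64, 73.43 and 62.87 TPM in PC3 and at 8.21, 5.44 and 5.93 in LNCaP. JAK1, the kinase shared by type I, type II and type III interferon receptors, was at 41.35, 39.93 and 38.73 TPM in PC3 and 3.85, 1.5 and 3.4 in LNCaP (-4.09 ± 0.27, adjusted p = 2.3e-11). Low JAK1 is a known property of LNCaP.

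Acetalax for 4 h lowered a small set of members in parental PC3 cells. Of 40 members, 6 fell: DTX3L, DDX58, IFIT3, IFIT5, OAS2 and IFI44. No member rose, either at an adjusted or at an unadjusted p under 0.05 in edgeR, and 0 rose in DESeq2. Across all 20049 genes tested, 7.81% were called, 4.32% lower and 3.49% higher. The members' median log2 fold change was -0.34 against 0.00 for all genes, and 33 of 40 were negative.

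DTX3L, a ubiquitin ligase that works with PARP9 in interferon and DNA damage responses, went from 18.32, 20.05 and 16.67 TPM to 11.01, 9.24 and 11.44 (log2 fold change -0.76 ± 0.10, adjusted p = 0.00126). DDX58 went from 5.41, 6.45 and 5.6 to 3.85, 3.36 and 3.9 TPM (-0.63 ± 0.11, adjusted p = 0.00436), a 1.55-fold lower level. In both genes every treated library was below every control. IFIT5, which binds RNA carrying a terminal triphosphate, went from 6.08, 6.95 and 5.89 to 3.22, 2.58 and 3.12 TPM (-1.06 ± 0.27, adjusted p = 0.0355). IFIT3, a stabilising partner of IFIT1, changed by -0.70 ± 0.17 (adjusted p = 0.0321), OAS2 by -0.84 ± 0.22 (adjusted p = 0.0421) and IFI44 by -0.59 ± 0.16 (adjusted p = 0.0447).

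IFIH1, beside DDX58 in function, was at 10.33, 11.09 and 9.75 TPM in PC3 controls and 7.33, 5.96 and 6.9 after Acetalax, without overlap but with an adjusted p of 0.0683 (-0.59 ± 0.18). TPM ranges were separate and lower for 17 of the 40 members, against 16.9% of all genes, and separate and higher for 0 of 40, against 15.9%. The 4 transcription factors had values of -0.13 to 0.16 on the log2 scale and did not pass, and ISG15 had a value of 0.25 ± 0.15 (adjusted p = 0.405). Leaving out any 1 of the 6 libraries reduced the 6 called members to 2 or 3. IFIT5 was among those lost each time (adjusted p 0.081 to 0.157), while DTX3L and DDX58 were called under all 11 alternatives tried.

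In LNCaP parental cells, Acetalax raised GBP1 and lowered IFIT5 and DDX58, and 36 of the 39 members tested did not pass. Of all 19393 genes, 8.46% were called, 4.04% higher and 4.42% lower, and the median was -0.09 for the members and -0.01 for all genes. GBP1, a GTPase of the interferon gamma response that coats intracellular bacteria, went from 0.52, 0.27 and 0.33 TPM to 1.94, 1.4 and 2.36, with every treated library above every control. Its log2 fold change was 2.04 ± 0.19 (adjusted p = 0.000172), a 4.12-fold higher level. IFIT5 went from 2.53, 2.03 and 3.26 to 0.82, 0.64 and 0.39 TPM (-1.99 ± 0.20, adjusted p = 0.000242), a 3.98-fold lower level. DDX58 went from 0.91, 1.3 and 1.12 to 0.56, 0.72 and 0.66 (-0.72 ± 0.16, adjusted p = 0.0187).

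TPM ranges of control and treated libraries were separate and higher for 3 members and lower for 6, against 5.79% and 13.7% of all genes. GBP1 and IFIT5 were called under all 12 alternatives and DDX58 under 10 of 12. Control 2 and Acetalax 3 stood apart in this line, with ISG20 at 19.58 and 20.62 TPM where the other 4 libraries held 55.46 to 60.38. Without both libraries 9 members were called, adding IFIT1 (-1.24), BST2 (-0.95), DTX3L (-0.26), PARP9 (-0.24), IRF1 (0.33) and IFITM1 (0.86) to the 3 above. IRF1 in the control libraries was 6.83, 2.01 and 5.09 TPM, with the lowest value in control 2, and 7.31, 6.39 and 7.4 after Acetalax.

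In PC3 CE cells all 4 IFIT genes fell with Acetalax, together with DTX3L, while IFI44 rose. These 6 of 40 members compare with 8.14% of all genes called, 3.47% lower and 4.67% higher, and the median was -0.18 for the members and 0.01 for all genes. IFIT1, which binds viral RNA whose cap lacks methylation, went from 3.51, 4.03 and 3.9 to 0.55, 1.77 and 1.84 TPM (-1.39 ± 0.32, adjusted p = 0.0261). IFIT2, another RNA-binding member of the family, went from 0.83, 0.91 and 0.8 to 0.37, 0.43 and 0.36 (-0.99 ± 0.12, adjusted p = 0.00106). IFIT3 went from 2.6, 2.68 and 2.67 to 0.8, 1.06 and 1.11 (-1.34 ± 0.19, adjusted p = 0.00231). In all 3 the treated libraries lay below the controls without overlap.

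IFIT5 went from 2.27, 2.4 and 2.56 to 0.31, 0.92 and 0.84 TPM (-1.73 ± 0.29, adjusted p = 0.00553), with its lowest value in Acetalax library 1. Separate TPM ranges were seen in 10 members for lower and 1 for higher values, against 21.2% and 10.7% of all genes. DTX3L fell by 0.50 ± 0.10 on the log2 scale (adjusted p = 0.0118). IFI44, an interferon-induced cytoplasmic protein, went from 13.95, 18.21 and 20.1 up to 25.64, 29.38 and 27.68 TPM (0.64 ± 0.15, adjusted p = 0.0295). DDX58 had a value of -0.37 ± 0.11 and an adjusted p of 0.0553, although its treated and control libraries did not overlap. Acetalax library 1 stood apart from the other treated libraries, with BST2 at 288.24 against 499.58 and 484.65 TPM and ISG20 at 24.29 against 2.23 and 1.47. Without it 9 members were called, all 4 IFIT genes among them, and DDX58 passed with a value of -0.36 (adjusted p = 0.0223). Without control 2 or control 3 there were 3, and without Acetalax 3 there were 10. The IFI44 rise was lost without any 1 of the 3 controls (adjusted p 0.0566 to 0.131) and with the replicate block (0.0528), and IFIT1 without any 1 of them (0.0705 to 0.0867). In a fit of the PC3 CE libraries alone, 1 of the 6 calls, IFIT3, was left.

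In LNCaP CE cells Acetalax lowered IFIT5, IFIT2, DDX58, SAMD9 and XAF1. These 5 of 39 members compare with 4.06% of all genes called lower, 3.34% higher and 7.4% in all, and the median was -0.09 for the members and 0.00 for all genes. At an adjusted p under 0.05 in edgeR 0 members rose, with 1 at an unadjusted p under 0.05 and 1 in DESeq2. IFIT5 went from 10.03, 8.97 and 8.73 to 3.53, 3.9 and 3.61 TPM (-1.18 ± 0.19, adjusted p = 0.00455), IFIT2 from 3.16, 3.01 and 3.27 to 2.1, 1.58 and 1.36 (-0.76 ± 0.20, adjusted p = 0.0479), and DDX58 from 7.6, 7.07 and 7.45 to 4.74, 4.58 and 4.35 (-0.56 ± 0.15, adjusted p = 0.0469). Controls and treated libraries were separate in each, as they were in 20 members in all for lower and 3 for higher values, against 34.3% and 10.4% of all genes.

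XAF1, a pro-apoptotic protein that antagonises XIAP, went from 9.38, 12.14 and 8.68 to 4.01, 4.7 and 5.15 TPM (-0.84 ± 0.21, adjusted p = 0.0367). SAMD9 was at a low level throughout, from 0.28, 0.24 and 0.14 to 0.07, 0.07 and 0.06 TPM (-1.53 ± 0.37, adjusted p = 0.0323). IFIT1 went from 9.51, 8.57 and 8.83 to 4.29, 3.85 and 4.34 TPM and IFIT3 from 21.16, 20.1 and 19.06 to 10.4, 9.3 and 10.4. Neither passed in the fit over all 12 LNCaP libraries (adjusted p = 0.301 and 0.0683), although control and treated ranges were far apart. Their spread in the LNCaP parental libraries, where IFIT1 ranged from 0.06 to 0.68 TPM, entered the same estimate. In a fit of the LNCaP CE libraries alone both passed, IFIT1 at -0.97 (adjusted p = 6.92e-09) and IFIT3 at -0.87 (adjusted p = 1.33e-08), and 18 members were called. Leaving out any 1 of the 6 libraries compared left 1 or 2 members called. The calls of DDX58, IFIT2 and XAF1 each held under 3 of 11 alternatives and that of SAMD9 under 4, and IFIT5 was called under all 11.

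**Figure D2:**
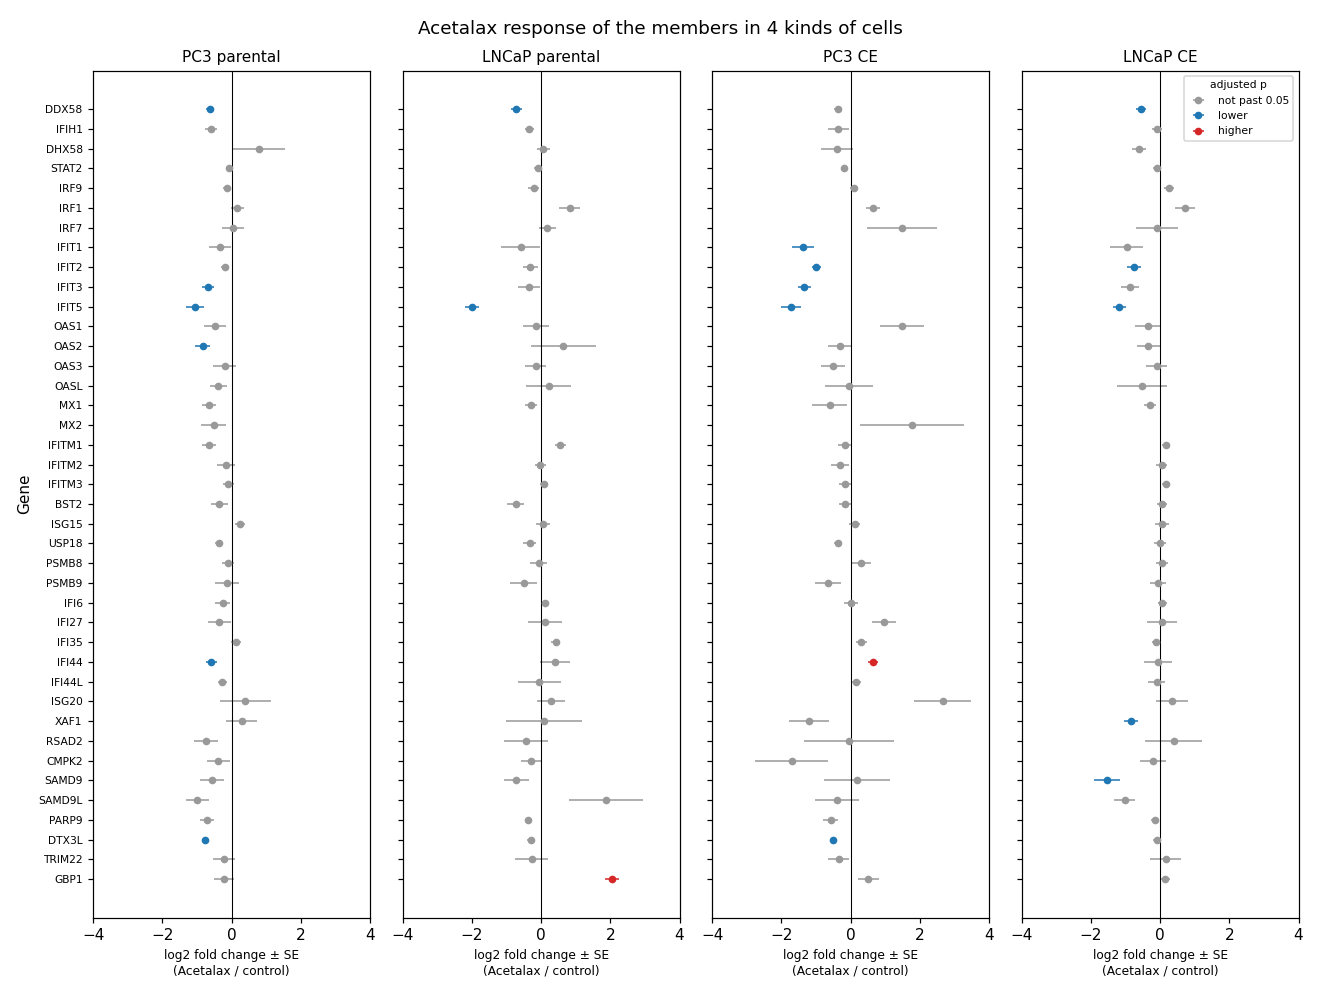
Log2 fold change of each member after 10 µM Acetalax for 4 h, with its standard error, in the 4 cell populations; blue points passed as lower, red as higher and grey did not pass at an adjusted p of 0.05. IFIT5 is blue in all 4 panels and GBP1 is red in LNCaP parental cells alone.

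Across the 4 populations, which have separate controls, IFIT5 was the one member called lower in each, a result that fails whenever 1 of the PC3 parental libraries is left out, since its call there is then lost. Its log2 fold changes of -1.06, -1.99, -1.73 and -1.18 in PC3 parental, LNCaP parental, PC3 CE and LNCaP CE cells correspond to levels 2.09-fold, 3.98-fold, 3.31-fold and 2.27-fold lower. Among all 17663 genes tested in every population 20 (0.113%) were called lower in each. DDX58 was called lower in 3 of the 4 populations and had values of -0.63, -0.72, -0.37 and -0.56. Its call in LNCaP CE cells was lost under most alternatives, as given above. Of the same 17663 genes, 178 (1.01%) were called lower in at least 3 of the 4. Of the 39 members tested everywhere, 14 were negative in all 4, against 12.5% of all genes. ISG15, a ubiquitin-like protein that is among the most strongly induced interferon-stimulated genes, had values of 0.25, 0.05, 0.12 and 0.05 and passed in none.

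**Figure D3:**
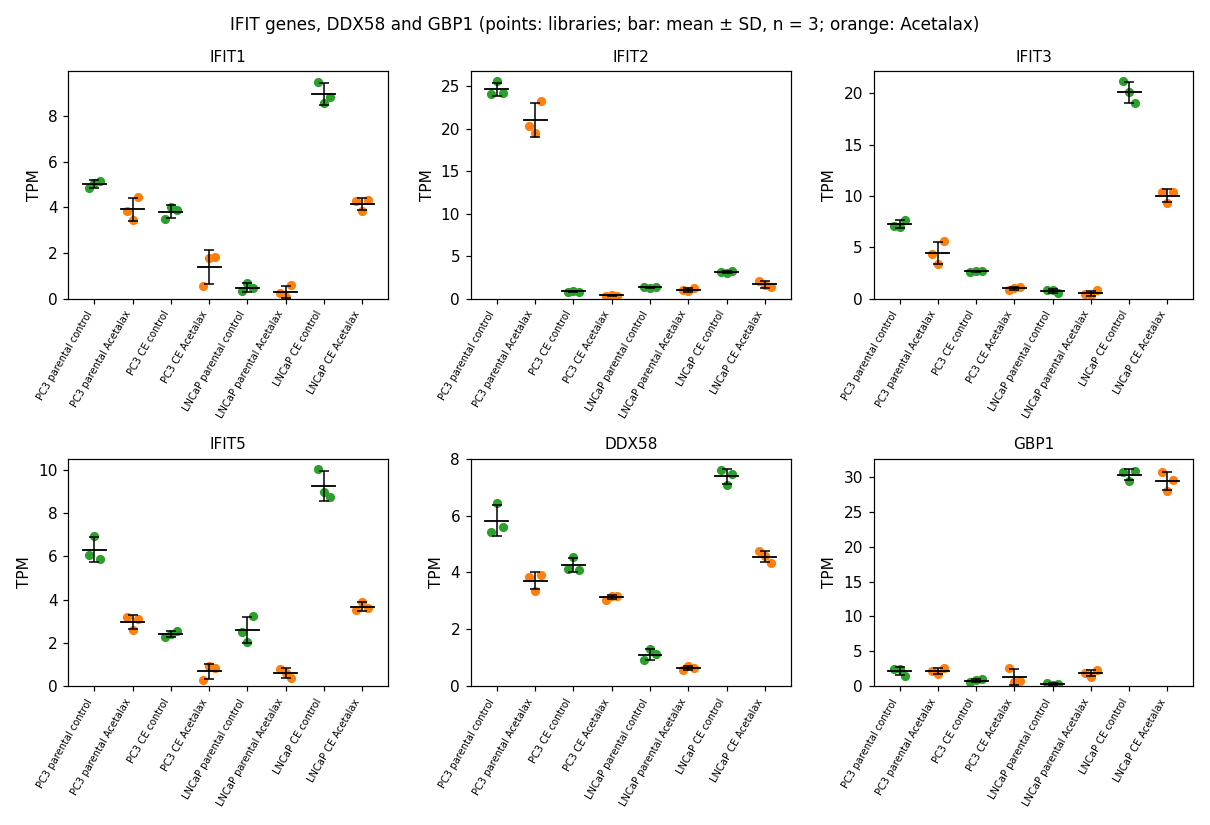
TPM of IFIT1, IFIT2, IFIT3, IFIT5, DDX58 and GBP1 in the 8 groups, with each library as a point and the group mean ± SD (n = 3). IFIT5 points of treated libraries lie below the controls in all 4 populations, whose control levels run from about 2 to 10 TPM.

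Tests of the difference between responses separated few members. Between PC3 CE and PC3 parental cells, 8.04% of all genes differed in their response, 4.6% higher and 3.44% lower in CE, and 2 of 40 members did. The IFI44 response was higher in CE cells by 1.23 ± 0.22 on the log2 scale (adjusted p = 0.00778), from -0.59 in parental cells to 0.64 in CE cells. The IFIT2 response was lower in CE cells by 0.79 ± 0.15 (adjusted p = 0.0104), from -0.20 to -0.99. For IFIT5 the difference was -0.66 ± 0.39 (adjusted p = 0.33) and for IFIT1 it was -1.05 ± 0.45 (adjusted p = 0.183), so a difference was not shown for them.

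Between LNCaP CE and parental cells 1.28% of all genes (0.583% higher, 0.701% lower in CE) and 1 of 39 members differed in response. GBP1 had a difference of -1.90 ± 0.24 (adjusted p = 0.00552). Its CE libraries were already at 30.61, 29.38 and 30.82 TPM without drug and at 30.65, 28.01 and 29.5 with it. No member had a higher response in CE cells at an adjusted p under 0.05 in edgeR or in DESeq2 (0 each), with 3 at an unadjusted p under 0.05.

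Between the parental lines, 5.05% of all genes (3.15% higher, 1.9% lower in LNCaP) and 2 of 40 members differed, both with the higher response in LNCaP. The difference was 2.26 ± 0.35 for GBP1 (adjusted p = 0.000492), which in PC3 was at 2.44, 2.51 and 1.5 TPM without and 2.15, 1.75 and 2.6 with Acetalax. For IFITM1 it was 1.22 ± 0.31 (adjusted p = 0.0221), between -0.66 in PC3 and 0.55 in LNCaP, neither of which passed alone. The IFITM1 call was lost without PC3 control 1, LNCaP control 3, LNCaP Acetalax 1 or LNCaP Acetalax 2, which left 1 member. A lower response in LNCaP was called for 0 members by edgeR and by DESeq2, with 1 at an unadjusted p under 0.05.

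The chronic exposure label went with large differences of opposite kinds in PC3 and LNCaP. Between PC3 CE and PC3 parental controls, 28 of 40 members were lower and 9 higher, with a median log2 fold change of -1.93 against -0.01 over all genes. Between LNCaP CE and LNCaP parental controls, 28 of 39 were higher and 6 lower, with a median of 1.94 against -0.06. The background is high in both: 77.5% of all genes were called in PC3 (39.0% lower, 38.5% higher) and 75.3% in LNCaP (39.3% lower, 36.0% higher). TPM ranges were separate for 29 members lower and 9 higher in PC3 CE, against 39.6% and 43.0% of all genes, and for 7 lower and 28 higher in LNCaP CE, against 41.0% and 35.4%. The changed marker sums given above, lower for epithelial and higher for fibroblast markers in both CE populations, accompany every value in this comparison. Single markers did not all follow their sum, and the part of the markers in these values was not tested.

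Among the sensors in PC3, IFIH1 went from 10.33, 11.09 and 9.75 TPM in parental controls to 0.19, 0.12 and 0.16 in CE (log2 fold change -6.23 ± 0.24, adjusted p = 5.67e-10). DDX58 differed far less, with CE libraries at 4.12, 4.55 and 4.1 TPM (-0.51 ± 0.10, adjusted p = 0.000772). DHX58 was higher in CE, at 1.81, 2.03 and 2.17 TPM (4.57 ± 0.63, adjusted p = 3.49e-05). In LNCaP it was DDX58 that stood higher, at 7.6, 7.07 and 7.45 TPM in CE (2.81 ± 0.16, adjusted p = 3.51e-08). IFIH1 was lower there by 0.71 ± 0.13 and DHX58 had a value of 0.06 ± 0.19 that did not pass.

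The transcription factors shared one feature: IRF7, the factor that amplifies type I interferon genes, was near 0 in both CE populations. In PC3 it went from 76.22, 60.52 and 80.58 TPM to 0.3, 0.06 and 0 (-10.13 ± 0.59, adjusted p = 1.62e-08), and in LNCaP from 12.65, 11.57 and 14.55 to 0.05, 0.29 and 0.02 (-7.41 ± 0.38, adjusted p = 1.29e-08). STAT2 was lower in CE in both lines, by 1.92 ± 0.07 and 0.74 ± 0.12. IRF9 and IRF1 went opposite ways, with IRF9 at -2.34 ± 0.12 in PC3 and 3.35 ± 0.16 in LNCaP, and IRF1 at -2.80 ± 0.21 and 4.36 ± 0.33. IRF1 libraries stood at 28.61, 22.06 and 25.98 TPM in PC3 parental and 4.41, 4.97 and 5.01 in PC3 CE, but at 86.98, 76.24 and 86.69 in LNCaP CE.

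Of the effectors in PC3, all 6 OAS and MX genes were lower in CE. MX1, a GTPase that blocks viral ribonucleoproteins, went from 26.27, 28.2 and 27.94 to 0.17, 0.24 and 0.12 TPM (-8.02 ± 0.32, adjusted p = 6.03e-10). OAS1 changed by -7.95 ± 0.49 and OASL by -7.70 ± 0.39, with OASL near the floor at 0, 0.03 and 0.05 TPM in CE. MX2 had 431 counts in the parental controls and 0 in CE, at least 164-fold lower. RSAD2 (viperin), which makes a chain-terminating nucleotide, had 401 counts against 1, a ratio of 458 with an exact 95% interval of 81.8 to 18153 that covers counting error only. SAMD9 changed by -7.66 ± 0.55, also near the floor in CE at 0.03, 0.01 and 0 TPM. Both immunoproteasome subunits were lower, PSMB8 by 6.80 and PSMB9 by 1.32 on the log2 scale, and ISG15 by 3.49. IFIT2, IFIT3 and IFIT5 were lower too, while IFIT1 had a value of -0.46 ± 0.31 (adjusted p = 0.195).

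The 4 membrane restriction factors went the other way. BST2 (tetherin), which holds budding virus at the cell surface, went from 3.36, 3.35 and 4.07 TPM in PC3 parental controls to 506.78, 477.34 and 491.92 in CE (7.03 ± 0.26, adjusted p = 3.71e-10). IFITM1, IFITM2 and IFITM3 were higher by 2.58, 0.82 and 1.32 on the log2 scale. IFI44L, at 233.84, 235.62 and 228.85 TPM in PC3 CE, was higher by 3.57 ± 0.14. USP18 was also higher, by 1.81 ± 0.12.

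In LNCaP, BST2 again changed most among the membrane factors, from 0.77, 0.85 and 1.4 TPM in parental controls to 486.81, 513.71 and 497.76 in CE (9.04 ± 0.21, adjusted p = 3.98e-11), and IFITM1 changed by 7.86 ± 0.16. XAF1 had 1910 counts in the CE controls against 1 in parental, a ratio of 1909 with an exact 95% interval of 342 to 75456, and SAMD9L had 328 against 0, at least 109-fold higher. OAS2 rose by 8.38 ± 0.55, IFI44L by 7.60 ± 0.39 and PSMB9, which replaces a constitutive proteasome subunit for antigen processing, by 7.01 ± 0.32. All 4 IFIT genes were higher, by 1.38 to 4.87 on the log2 scale. Besides IRF7, STAT2 and IFIH1, the members lower in CE were ISG20, RSAD2 and CMPK2, a mitochondrial nucleotide kinase next to RSAD2.

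**Figure D4:**
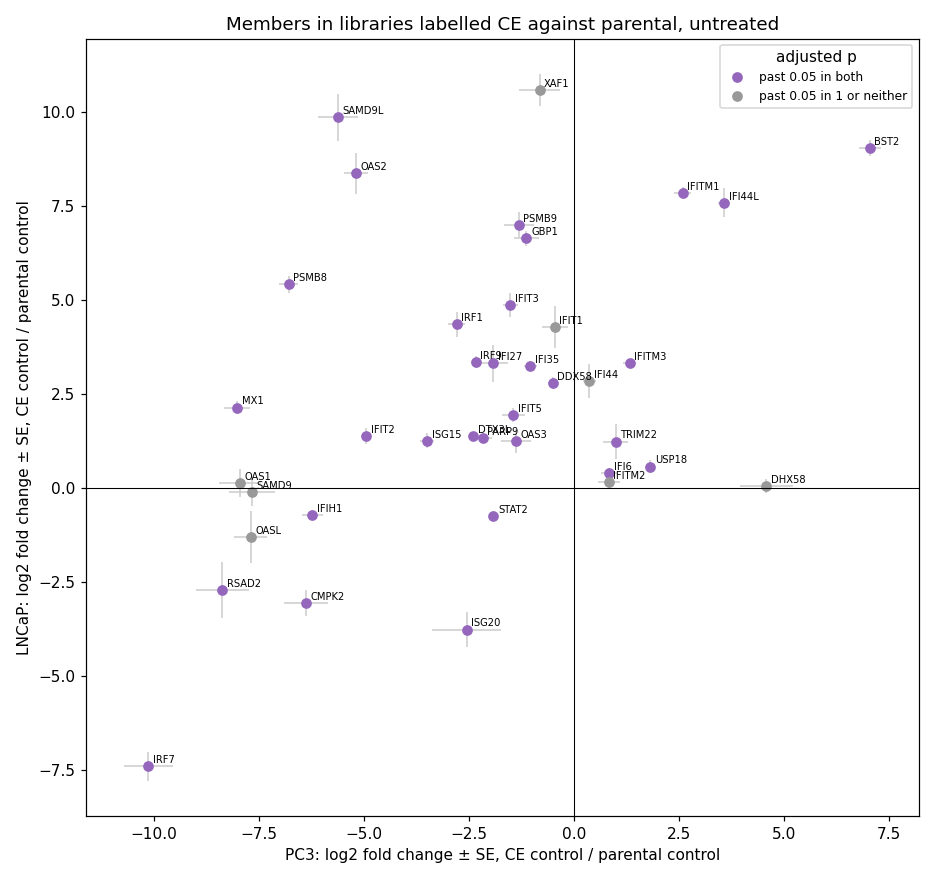
Log2 fold change of CE against parental controls in PC3 (horizontal) and LNCaP (vertical) for the 39 members tested in both, without MX2, with SAMD9L at its fitted value. Most points lie in the upper left, lower in PC3 CE and higher in LNCaP CE, with BST2, IFI44L and IFITM1 at the upper right and IRF7 at the lower left.

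Set against each other by their calls, 18 members were lower in PC3 CE and higher in LNCaP CE, 7 were higher in both and 6 lower in both. Of all genes, 39.0% were called lower and 38.5% higher in PC3 CE, and 39.3% lower and 36.0% higher in LNCaP CE. The share of all genes with each joint pattern was not counted, so these counts have no background of their own. The difference of the CE changes between the lines, a comparison added after the data were seen, passed for 35 of 40 members, 33 with the higher change in LNCaP and 2 with the lower, where 56.8% of all genes passed (25.7% higher, 31.2% lower). The members' median difference was 4.73 on the log2 scale, against -0.13 for all genes. The differences with a lower change in LNCaP were DHX58 at -4.54 ± 0.62 and USP18 at -1.26 ± 0.22. As neither line shares libraries with the other, these values come from separate controls.

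Directly compared, LNCaP CE controls were above PC3 CE controls for 27 of 40 members and below for 4, although the CE controls were the most alike pair among the 4 control groups over all genes. Of all genes, 41.0% differed, 16.7% higher and 24.2% lower in LNCaP CE. The members' median was 2.56, or 2.16 with groups at 0 counts set at their bound, against -0.07 for all genes. PSMB8 stood at 0.28, 0.63 and 0.36 TPM in PC3 CE and 35.74, 38.67 and 33.42 in LNCaP CE (6.45 ± 0.25, adjusted p = 2.9e-14), PSMB9 at 3.09, 2.08 and 3.54 against 89.16, 102.84 and 90.68 (5.08 ± 0.34), and GBP1 at 0.65, 0.85 and 1.02 against 30.61, 29.38 and 30.82 (5.33 ± 0.26). The groups were widely apart in all 3. XAF1 (6.83), MX1 (6.36), SAMD9 (4.79) and OAS2 (4.67) were also higher in LNCaP CE, and all 4 were near 0 in PC3 CE. SAMD9 was low in both, at 0.03, 0.01 and 0 TPM in PC3 CE and 0.28, 0.24 and 0.14 in LNCaP CE. IFI44L was far lower, at 6.02, 7.99 and 6.85 TPM (-4.93 ± 0.18), and IFITM2 (-1.96), STAT2 (-0.70) and IFI6 (-0.45) were lower as well. TPM ranges were separate for 31 members higher and 4 lower in LNCaP CE, against 22.4% and 38.7% of all genes. BST2 did not pass (0.16 ± 0.18, adjusted p = 0.501).

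A wider list of 52 pathway genes (interferons, receptors, JAK and STAT genes, adaptors, regulators and further effectors) gave the surroundings of these members. IFNG, the gene of interferon gamma itself, had 164 counts in LNCaP CE controls and 0 in LNCaP parental and PC3 CE controls, at least 54.6-fold and 55.8-fold higher. Acetalax raised it in LNCaP CE, from 1.7, 1.87 and 1.51 to 4.98, 4.9 and 3.88 TPM, with every treated library above every control (1.56 ± 0.24, adjusted p = 0.0127). IFNG is mainly made by T and NK cells. A list of 8 immune cell markers summed to 11.0 TPM in LNCaP CE controls and 10.1 after Acetalax, against 37.1, 1.95 and 9.4 in PC3 parental, LNCaP parental and PC3 CE controls. Most of the LNCaP CE sum was CD68, a macrophage marker, at 11.47, 9.07 and 10.49 TPM without and 8.72, 8.7 and 8.09 with Acetalax. CD14, a monocyte marker, went from 0.17, 0.19 and 0.08 to 1.32, 0.99 and 1.05. The T and NK cell markers CD3E and NKG7 were at 0 in all 6 libraries, and PTPRC, common to leukocytes, was between 0 and 0.19. In group means 7 of the 8 were under 1 TPM without Acetalax and 6 with it, and the part of the markers in the IFNG values was not tested.

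**Figure D5:**
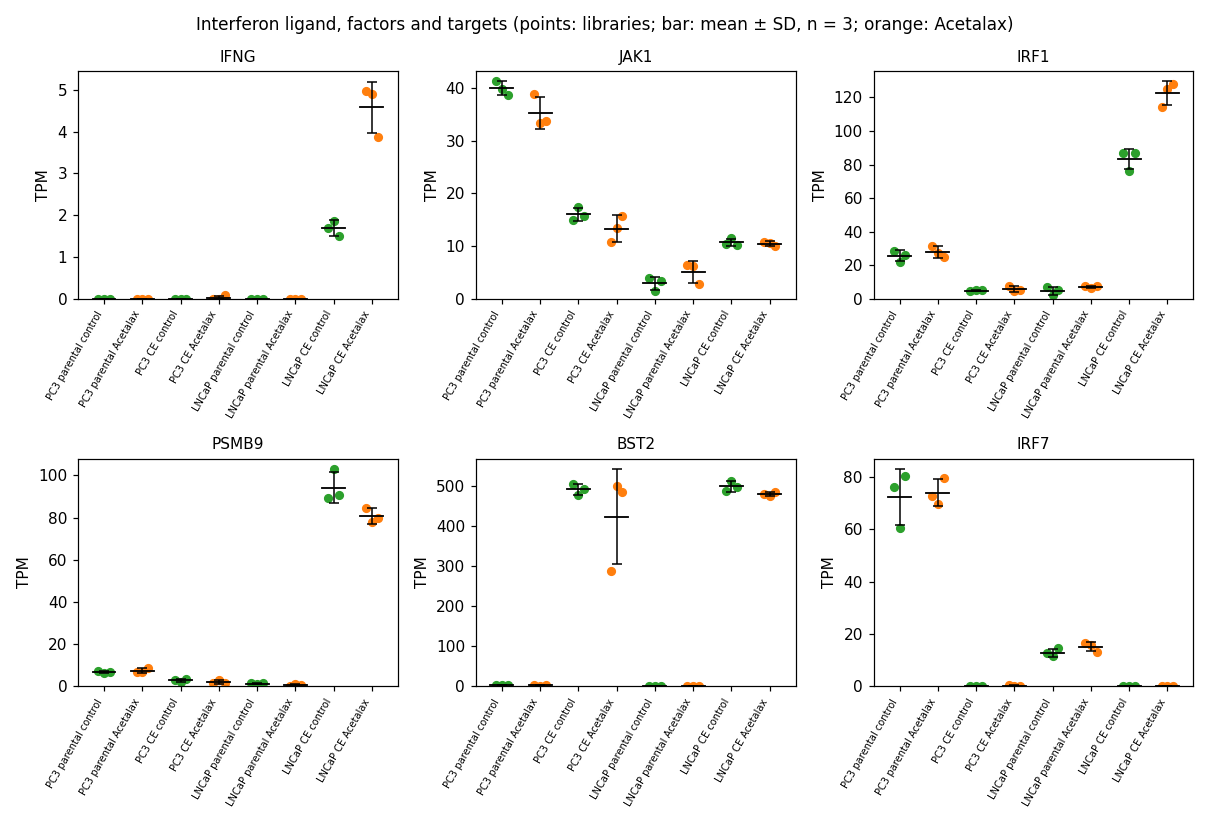
TPM of IFNG, JAK1, IRF1, PSMB9, BST2 and IRF7 in the 8 groups, with each library as a point and the group mean ± SD (n = 3). IFNG, IRF1 and PSMB9 are highest in LNCaP CE, JAK1 is lowest in LNCaP parental libraries, BST2 is near 500 TPM in both CE controls, and IRF7 is near 0 in both.

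Some of the pathway genes were called after Acetalax in each population. In PC3 parental cells 1 rose and 6 fell of 45 tested, among the latter PIAS1 (-0.82), ZNFX1 (-0.80), a helicase sensor of RNA, IRF2 (-0.75), TBK1 (-0.66), the kinase of IRF3, and SOCS3 (-0.60), a feedback inhibitor of cytokine signalling. In LNCaP parental cells 2 rose, ZNFX1 (0.64) and IRF2 (0.61), and 2 fell, TRIM21 (-0.59) and IFNAR2 (-0.40), of 44. In PC3 CE cells 3 rose, SOCS1 (1.99), SOCS3 (0.79) and IFNLR1 (0.62), and 2 fell, TRIM21 (-0.78) and IKBKE (-0.54), of 45. SOCS1 there went from 0.43, 0.59 and 0.56 to 3.73, 1.38 and 0.78 TPM, highest in Acetalax library 1, which stood apart from its replicates. In LNCaP CE cells 5 rose and 3 fell of 44: beside IFNG these included TREX1 (1.35), a DNA exonuclease, IRF2 (0.44) and MAVS (-0.65), the adaptor of the RNA sensors. These counts stand beside 7.81%, 8.46%, 8.14% and 7.4% of all genes called.

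Between CE and parental controls the wider list had, beside the high background given above, 10 higher and 26 lower of 45 in PC3 and 25 higher and 12 lower of 44 in LNCaP. In PC3 CE, STAT3 was higher by 11.41 on the log2 scale, and CGAS (-6.75), the DNA sensor, and APOL6 (-6.67) were lower. EPSTI1 had 223 counts in PC3 parental controls and 1 in CE, a ratio of 255 (exact 95% interval 45.3 to 10115), and IFNE 79 and 0, at least 30.1-fold lower. In LNCaP CE, IFI16 (6.49) and PLSCR1 (6.45) were higher and TREX1 (-6.64) was lower, and EPSTI1 had 41 counts in parental controls and 0 in CE, at least 13.7-fold lower. Between the parental lines 9 were higher in LNCaP and 25 lower of 46, beside 35.5% and 34.7% of all genes (70.3% in all). STAT3 was at 12.29, PLSCR1 at -7.59 and IFNLR1, a subunit of the lambda interferon receptor, at -6.06. Between the CE controls 24 were higher in LNCaP CE and 6 lower of 46, beside 16.7% and 24.2% of all genes. Those higher were led beside IFNG by APOL6 (6.90), IFI16 (5.38), NLRC5 (5.29), the activator of MHC class I genes, and TLR3 (5.07), the endosomal RNA sensor.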

How the data were processed

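The authors deposited 1 table of RSEM expected counts and 1 of TPM (levels per transcript length, scaled to 1000000 per library) for the 60660 features in 24 libraries. Per the submitters' processing notes FastQC, STAR 2.7 and RSEM were used with GRCh38 (hg38), with no annotation release or strand setting named. Per the labels, libraries were directional and poly(A)-selected. In the deposited expected counts 10.2% of values were not whole; they were rounded, which changed no library's total by more than 0.000125%. One further column in each table (2 in all) was not used.

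Counts were scaled by TMM and tested with edgeR 4.0.16 (quasi-likelihood, limma 3.58.1, R 4.3.3), with a filterByExpr minimum of 10 and Benjamini-Hochberg adjustment over all genes at 0.05. Comparisons within a line used its 12 libraries and those between lines used all 24; SE is the log2 fold change divided by the root of F. The code was tested on simulated counts. A group at 0 was bounded at 3 counts over the group. TPM served for levels only. Alternatives were DESeq2 1.42.0, RLE scaling, no filter, a replicate block, fits of only the groups compared and libraries left out. Totals of 40160832 to 57728014 set the precision, and intervals cover counting error only.

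The members, the wider pathway list and the marker lists (prostate, epithelial, melanocyte, fibroblast, endothelial and immune) were chosen with earlier results of these data known. Genes were named by rule: up to 8 called members with the largest change per comparison, the sensors and transcription factors within lines, and up to 5 called pathway genes. A few genes of these lists are not reported here. JAK1, ISG15 and other members or pathway genes named beyond it were chosen after their values were seen, as was the difference of the CE changes. Promoter sequences are from RefSeq (GRCh38.p14) and gene positions from GENCODE 29.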

Additional observations from a re-analysis of the deposited data

Results flagged for a closer look

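Responses or changes that differed between groups by a test of the difference itself are listed here. Between PC3 CE and PC3 parental cells the Acetalax response differed by 1.23 for IFI44 and by -0.79 for IFIT2, both on the log2 scale and each called under all 16 alternatives tried. The GBP1 response differed by -1.90 between LNCaP CE and LNCaP parental cells and by 2.26 between parental LNCaP and parental PC3 cells, each called under all 17 alternatives. The IFITM1 response differed by 1.22 between the parental lines and was called under 13 of 17.

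The change from parental to CE controls differed between LNCaP and PC3 for most members, where 56.8% of all genes also differed. The 8 with the largest fitted differences were SAMD9L at 15.46, OAS2 at 13.54, PSMB8 at 12.19, XAF1 at 11.40, MX1 at 10.14, MX2 at 9.29, PSMB9 at 8.30 and OAS1 at 8.06 on the log2 scale. In SAMD9L and MX2 a group had 0 counts, so these fitted values depend on the prior count and are no bound. XAF1 had 1 count in LNCaP parental controls, and OAS2 was at 0, 0.04 and 0 TPM there. Their fitted values are therefore imprecise as well. The marker levels of the CE libraries move with these values, and their part in them was not tested.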

How the results depend on the processing

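The counts of members called between CE and parental controls, between the parental lines, between the CE controls and for the difference of the CE changes stayed within 1.5 times the reported count under every alternative run for them. In CPM with TMM scaling in place of TPM, 33 of the 40 members had the same highest of the 8 groups and 16 the same order of all groups. RLE scaling moved the median of all genes by at most 0.057 on the log2 scale.

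The counts of members called after Acetalax moved more. In PC3 parental cells 6 members were called, against 3 with the replicate block, 12 with DESeq2, 17 with only the groups compared in the fit and 2 to 3 with 1 library left out. In LNCaP parental cells 3 became 6 with DESeq2, 9 without control 2 and Acetalax 3 together, and 3 to 6 with 1 library left out (6 without Acetalax 3). In PC3 CE cells 6 became 12 with DESeq2, 1 with only the groups compared and 3 to 10 with 1 library left out. In LNCaP CE cells 5 became 1 with no low-count filter, 1 with the replicate block, 9 with DESeq2, 18 with only the groups compared and 1 to 2 with 1 library left out. For differences of responses, 2 in PC3 became 2 to 6 with 1 library left out (6 without PC3 CE Acetalax 1), 1 in LNCaP became 5 without both LNCaP parental libraries, and 2 between the parental lines became 1 to 3 with 1 library left out. The cause of these shifts was not tested.

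The replicate numbers do not pair the samples: same-numbered libraries had deviations correlating at -0.047 to 0.033 in PC3 and -0.587 to 0.412 in LNCaP. The replicate block is therefore a check only. Under it the other counts of members stayed within 1.5 times. LNCaP pairs with different numbers ran from -0.594 to 0.707, the highest between parental control 2 and parental Acetalax 3. The main fit did not model this shared deviation.

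Over all genes, the 1565 genes called in PC3 parental cells became 1041 with no filter, 2701 with DESeq2, 4761 with only the groups compared and as few as 573 with 1 library left out. The 1640 in LNCaP parental cells became 2778 with DESeq2, 154 with only the groups compared, 5279 without both libraries and 967 to 2615 with 1 left out. The 1632 in PC3 CE cells became 993 with the replicate block, 3075 with DESeq2, 224 with only the groups compared and 503 to 3359 with 1 left out. The 1435 in LNCaP CE cells became 892 with no filter, 870 with the replicate block, 2875 with DESeq2, 7883 with only the groups compared and 541 to 610 with 1 left out. The 1612 response differences in PC3 became 1007 with the replicate block, 2779 with DESeq2 and 758 to 4594 with 1 left out. The 249 in LNCaP became 133, 55 and 1076 with no filter, block and DESeq2, 3838 without both libraries and 79 to 812 with 1 left out. The 1108 between parental lines became 707, 1816 and, without PC3 Acetalax 2, 691.

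Among values of named genes under alternatives, 1729 kept their direction and side of the threshold, 121 no longer passed, 15 newly passed and 24 changed sign. The values that changed sign had not passed as reported. With 1 library left out after Acetalax, DHX58 ran from -0.075 to 1.29 in PC3 parental and -0.090 to 0.277 in LNCaP parental cells, IRF7 from -0.090 to 0.163 in PC3 parental, -0.484 to 2.80 in PC3 CE and -0.515 to 1.25 in LNCaP CE cells, and STAT2 from -0.181 to 0.048 in LNCaP parental cells. DHX58 in LNCaP CE against parental ran from -0.095 to 0.272. Among response differences in PC3, IFIH1 ran from -0.069 to 0.471 and IRF7 from -0.529 to 2.75. In LNCaP these ranges were -0.027 to 0.294 for DDX58, -0.123 to 0.092 for STAT2, -0.418 to 0.244 for IRF1 and -0.698 to 1.07 for IRF7, and without both libraries STAT2 was -0.037 and IRF1 0.39, which then passed (adjusted p = 0.0338). Low counts limit IRF7 in CE cells and DHX58 in PC3 parental cells.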
